A study of Mus musculus with 12 samples.

Results

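The comparison described here is between ATF6a knockout mouse embryonic fibroblasts given 2 ug/mL tunicamycin for 12 h and the same cells left untreated, for all mouse miRNAs on the array. It was chosen by sample title and rests on 4 of the 12 arrays of the series, 2 per group, which the series' text describes as independent experiments. All cells were embryonic fibroblasts (MEFs) of C57BL/6 background with the label ATF6aKO or wild type, and the series also holds both genotypes after 24 h and the wild type at 12 h. The labels do not say whether each genotype was 1 line or how the knockout was made, and an array of miRNA probes cannot check the genotype. The 4 wild type arrays (untreated and 12 h) served to compare the responses of both genotypes and the arrays of one scanning run. The 2 knockout arrays at 24 h are given as values. All 12 arrays entered the scaling, the floor, the choice of probes and the spread behind every test. Of 611 mouse miRNAs with probes, 174 were tested, beside 1 viral miRNA; the other 437 were not well above background on both arrays of any of the 6 groups.

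Tunicamycin blocks N-linked glycosylation, so that unfolded glycoproteins build up in the endoplasmic reticulum and the unfolded protein response starts. ATF6a is a membrane-bound sensor of this response: it moves to the Golgi, is cleaved there, and its released part enters the nucleus and activates chaperone genes, while the sensors PERK and IRE1 act beside it and remain in the knockout. miRNAs are short RNAs that pair with messenger RNAs mainly through their seed, bases 2 to 8, and lower their translation or stability, so miRNAs with the same seed form a family with largely shared targets. Both ATF6-independent arms are known to alter miRNAs, PERK signalling by transcription and IRE1 by cutting certain precursors.

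The sequences of the miRNAs that the results turn on are printed here, with the seed in capitals, from RefSeq's table for GRCm38.p6; 133 of the 175 tested miRNAs had an entry there. The first set fell after tunicamycin, and relatives with the same seed that did not pass the test stand beside them for comparison.
miR-199a-3p: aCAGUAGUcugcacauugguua
miR-199a-5p: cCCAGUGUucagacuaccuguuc
miR-214: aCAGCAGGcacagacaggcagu
let-7i: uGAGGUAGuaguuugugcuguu
let-7g (relative of let-7i): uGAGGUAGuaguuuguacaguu
let-7a (relative of let-7i): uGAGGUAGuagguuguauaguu
miR-26a: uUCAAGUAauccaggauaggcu
miR-26b (relative of miR-26a): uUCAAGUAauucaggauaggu
miR-322: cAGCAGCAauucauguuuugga
miR-16 (relative of miR-322): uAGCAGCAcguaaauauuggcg
miR-130a: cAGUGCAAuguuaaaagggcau
miR-301a (relative of miR-130a): cAGUGCAAuaguauugucaaagc
miR-34a: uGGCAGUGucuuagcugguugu
miR-34b-5p: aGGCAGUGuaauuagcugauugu
The second set rose.
miR-1224: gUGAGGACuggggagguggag
miR-1895: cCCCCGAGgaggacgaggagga
miR-19b: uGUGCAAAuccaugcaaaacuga
miR-20b: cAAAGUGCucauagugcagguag
The 3 miRNAs of the miR-199 and miR-214 locus have 3 different seeds, whereas let-7i, miR-26a, miR-322 and miR-130a each share a seed with a relative that did not pass.

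Levels are log2 of the spot signal divided by the array's 75th percentile over 87 probes well above background on all 12 arrays, with a floor at -5.02. They show change between arrays for 1 miRNA and not how much of 1 miRNA there is against another. A miRNA counts as well above background on an array where 1 or more of its used probes was so. It is called measured where this held on all 4 arrays and no used probe lay at the floor, which 60 of 175 met. A level averages all used probes, so that of a measured miRNA can lie under an array's limit. Among the calls below this held on treated replicate 2 for miR-26a (-3.37), miR-1895 (-3.07) and miR-20b (-3.02). On the untreated arrays 160 and 166 of the tested miRNAs were well above background, on treated replicate 1 127, and on treated replicate 2 73. Treated replicate 2 stood apart, with an SD of its negative control spots of 12.1 against 2.33 to 2.92 on the other 3, and its lowest signal well above background was -2.94 on the log2 scale against -4.75 on treated replicate 1. Over the 60 measured miRNAs it was lower than treated replicate 1 for 49, by a median of -0.55, where the untreated replicates differed by 0.03. The untreated arrays lay on one slide and the treated arrays on another, so slide and treatment cannot be told apart, and each array of a group was scanned in a run of its own. In bulk RNA, fewer cells with a miRNA and less of it per cell cannot be told apart either.

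After 12 h of tunicamycin the knockout fibroblasts had less of the miRNAs encoded at the miR-199 and miR-214 locus, of let-7i, miR-26a, miR-322 and miR-130a, and of miR-34a and miR-34b-5p. They had more of miR-1224, miR-1895, miR-689 and of miR-19b and miR-20b, members of the miR-17-92 group. The directions of miR-689, miR-19b, miR-20b, miR-26a and miR-34b-5p turned under 1 or more other ways of processing, as given below. In all, 30 of 175 tested miRNAs passed the test, which is 17.1% (limma across all 6 groups, Benjamini-Hochberg adjusted p under 0.05, n = 2 arrays per group), with 25 lower (14.3%) and 5 higher (2.86%). The treated and untreated arrays did not overlap for 92 miRNAs, 52.6% of those tested, of which 68 were lower and 24 higher after treatment, so absence of overlap alone says little here. Of the 30, 12 were measured on all 4 arrays (8 lower, 4 higher). Another 10 were well above background on the untreated arrays and treated replicate 1 but not on treated replicate 2, and 8 on neither treated array. Fitted to the 4 knockout arrays alone, limma called 0, with 34 at an unadjusted p under 0.05, so the calls rest on the spread shared with the other groups. Knockout and wild type arrays of one scanning run deviated together from their group means (r = 0.74 untreated and 0.93 at 12 h). The shared spread counts these deviations as independent. With the run as a random block, at 1 correlation of 0.24 for all miRNAs, 30 passed, 28 of them among these 30. Treated and untreated arrays lay in different runs, so this block cannot remove differences between runs from the change. The median change over all tested miRNAs was -0.09, and the changes below are not corrected for it.

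**Figure D1:**
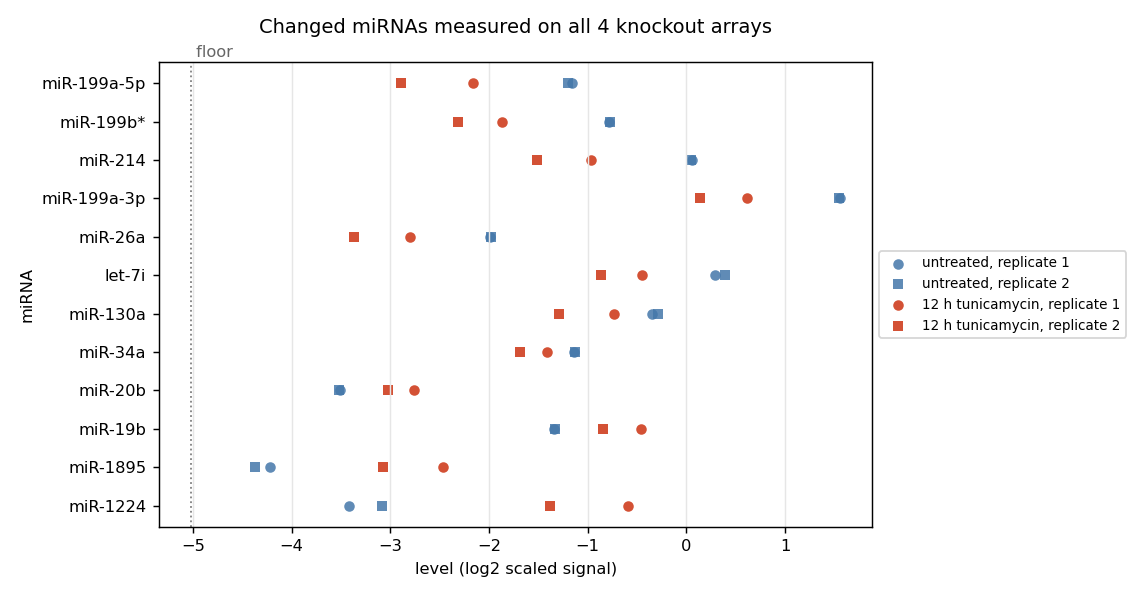
Level of the 12 changed miRNAs measured on all 4 knockout arrays, as log2 scaled signal on the horizontal axis, with 1 point per array and the floor as a dotted line. For each miRNA both treated arrays (red) lie on one side of both untreated arrays (blue), and treated replicate 2 (red squares) lies left of treated replicate 1 (red circles) for all 12.

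The miRNAs of the miR-199 and miR-214 locus fell together. miR-199a and miR-214 are processed from one long noncoding transcript, Dnm3os, which is known from mesenchymal cells, and 1 of the 2 miR-199a loci lies beside miR-214 on chromosome 1. miR-199a-3p had levels of 1.56 and 1.55 on the untreated and 0.61 and 0.14 on the treated arrays. Both treated arrays were lower, and the change was -1.18 ± 0.14 (SE, limma, adjusted p = 0.0018), 2.26-fold lower. The other strand of the same hairpin, miR-199a-5p, went from -1.16 and -1.20 to -2.16 and -2.90, a change of -1.35 ± 0.23 (limma, adjusted p = 0.00916). miR-214 went from 0.06 and 0.04 to -0.96 and -1.52, a change of -1.29 ± 0.19 (limma, adjusted p = 0.0035). The array's miR-199b* probes, from the related miR-199b locus, went from -0.78 on both untreated arrays to -1.87 and -2.31, a change of -1.31 ± 0.17 (limma, adjusted p = 0.00252). So all 4 tested members of the list fell, with a median of -1.30, and the spread between the untreated arrays was at most 0.04. As probes of miR-199a and miR-199b strands are nearly alike in sequence, the 4 are not independent readings. Without untreated replicate 2 the call of miR-199a-5p was lost (limma, adjusted p = 0.0581), and the other 3 passed without any 1 of the 4 arrays. At 24 h in the same cells the levels of miR-199a-3p were 0.56 and 0.43, and those of miR-214 were -1.23 and -1.50.

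let-7i was the only one of 9 tested let-7 and miR-98 members to pass. The let-7 family is abundant in differentiated cells and restrains growth-related genes such as Hmga2 and Lin28. let-7i had levels of 0.29 and 0.39 untreated and -0.45 and -0.87 after 12 h, a change of -0.996 ± 0.138 (limma, adjusted p = 0.00301). The changes of the other 8 lay between -0.13 and 0.25, with let-7a at 0.04, let-7g at -0.13 and let-7b at 0.25, and none had an adjusted p under 0.288 (limma). Because the family shares its seed and each array holds all members, let-7i can be set against its relatives within an array, which removes any scaling. Against the mean of the 8 others, the log2 ratio of let-7i was lower than its untreated mean by -1.10 on treated replicate 1 and by -0.96 on treated replicate 2, while the untreated arrays lay 0.04 from it. The replicates that differed by 0.42 in the level of let-7i thus differed by 0.15 in this ratio. let-7i is encoded alone on chromosome 10, apart from the other members.

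A like split within a seed family was seen for miR-322, miR-26a and, less far, miR-130a. miR-322, encoded beside miR-503 and a relative of miR-15 and miR-16, is known to hold back cell cycle genes. It had levels of -2.24 and -2.20 untreated and -3.22 and -3.52 after treatment, where treated replicate 2 was not well above background, a change of -1.15 ± 0.14 (limma, adjusted p = 0.0018). Its relatives miR-15a (-0.03), miR-15b (0.10) and miR-16 (-0.01) did not pass, and miR-195 (0.25) and miR-497 (-0.05), also not passing, had no treated array with a signal well above background. Against the mean of miR-15a, miR-15b and miR-16, miR-322 was lower by -1.30 and -1.04 on the treated arrays, and the untreated arrays lay 0.01 from their mean. miR-26a, a miRNA linked to growth restraint and to Ezh2, went from -1.99 and -1.98 to -2.80 and -3.37, a change of -1.10 ± 0.20 (limma, adjusted p = 0.00971). Its call was lost without untreated replicate 1 or 2 (limma, adjusted p = 0.0536 and 0.0694), and its direction turned where the probe sum given by the scanner software (the summed signal) was used, to 0.12, and in the deposited table, to 0.40. The deposited table holds the same summed signal without scaling, so these are not separate readings. miR-26b changed by -0.29 ± 0.21 and did not pass, and the ratio of miR-26a to miR-26b was lower by -0.85 and -0.77 on the treated arrays, though miR-26b was not well above background on treated replicate 2. miR-130a, which targets genes of growth and lipid metabolism, went from -0.34 and -0.28 to -0.74 and -1.29, a change of -0.70 ± 0.19 (limma, adjusted p = 0.0475). Against miR-301a, itself changed by -0.21, it was lower by -0.40 and -0.59, and its call was lost without untreated replicate 1 or 2 or treated replicate 2 (limma, adjusted p = 0.138, 0.229 and 0.143). These within-array ratios were chosen after the calls were known and are given without a test.

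**Figure D2:**
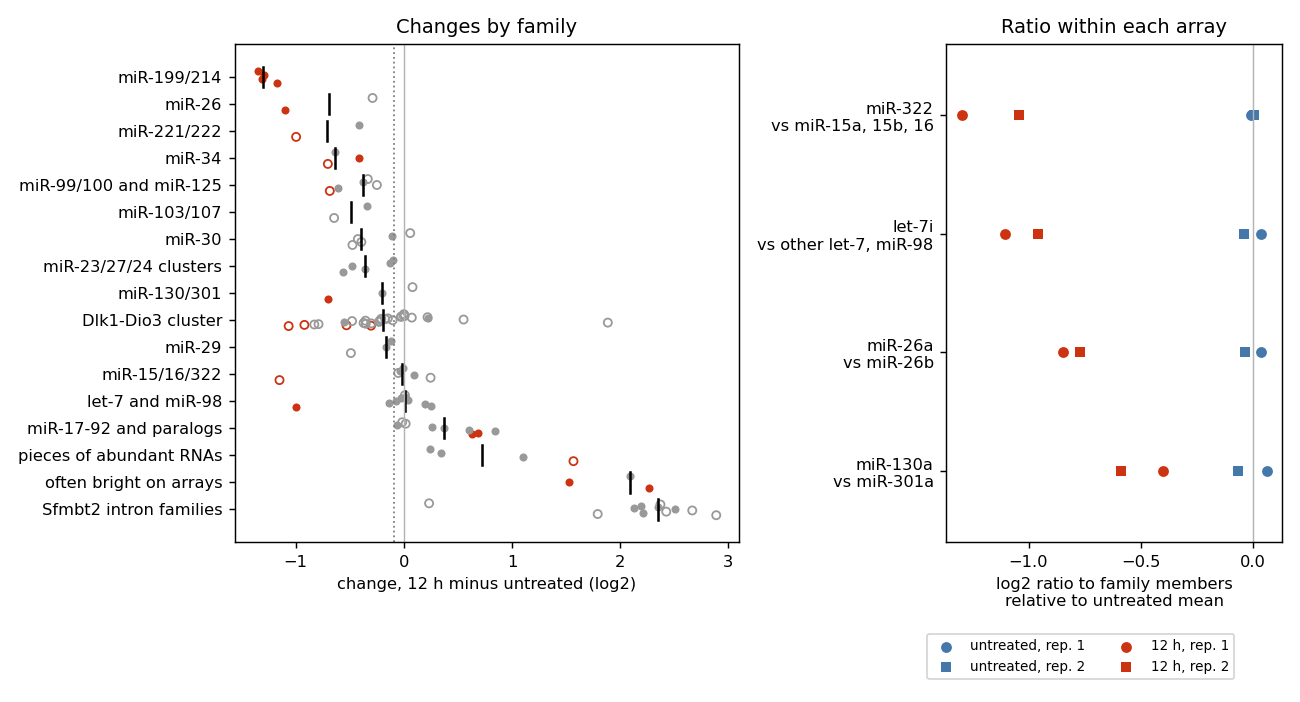
Left, change of each tested miRNA after 12 h in the knockout (log2), by list; red marks those that passed the test, filled points those measured on all 4 arrays, bars the list medians and the dotted line the median of all tested. Right, log2 ratio of 4 changed miRNAs to relatives with the same seed within each array, relative to the untreated mean; let-7i lies at -1.10 and -0.96 on the treated arrays.

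The miR-34 family, whose transcription p53 activates, had 3 tested members on the array, and 2 of them fell. miR-34a had levels of -1.14 and -1.13 untreated and -1.41 and -1.69 treated, a change of -0.41 ± 0.10 (limma, adjusted p = 0.0366). miR-34b-5p went from -2.60 and -2.58 to -3.07 and -3.52, the last not well above background, a change of -0.70 ± 0.15 (limma, adjusted p = 0.0167). miR-34c, at -2.23 and -2.16 untreated and -2.43 and -3.25 treated, changed by -0.64 ± 0.24 and did not pass (limma, adjusted p = 0.121). All 3 were lower on both treated arrays. Without untreated replicate 1 or 2 the adjusted p (limma) was 0.114 and 0.15 for miR-34a and 0.0797 and 0.105 for miR-34b-5p, and without treated replicate 2 it was 0.0903 for miR-34a. In the deposited table miR-34b-5p turned to 0.11, where the median of the 81 miRNAs tested was 0.15. At 24 h the levels were -1.08 and -1.27 for miR-34a and -2.56 and -2.78 for miR-34b-5p, next to the untreated levels.

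A wider list of 21 array miRNAs that earlier work has tied to ER stress had 12 tested members, of which 0 rose and 5 fell: miR-199a-5p, miR-214, miR-322, miR-34a and miR-222. Over all tested miRNAs 14.3% fell. The list's median was -0.42 against -0.09 for all tested. miR-221 and miR-222, encoded side by side with one seed, lower the cell cycle inhibitor p27. miR-222 had levels of -3.92 and -4.12 untreated and lay at the floor on both treated arrays, where it was not well above background (limma, adjusted p = 0.000211). miR-221 went from -1.51 and -1.46 to -1.53 and -2.28, lower only on replicate 2 by more than the untreated spread, and did not pass (-0.42 ± 0.25; limma, adjusted p = 0.288). Of the other members, miR-96 changed by -0.20, miR-125b-5p by -0.61, miR-106b by -0.06, miR-25 by 0.02 and miR-30d by -0.39, and none of these passed. miR-17, miR-708, miR-211, miR-204 and miR-346 were not among the tested miRNAs.

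miRNAs linked to inflammation and hypoxia were dim. miR-146a and miR-146b, which restrain NF-kappaB signalling and share a seed, had untreated levels of -4.72 and -4.46, and of -4.68 and -4.74. Both lay at the floor on both treated arrays, not well above background, and passed the test (limma, adjusted p = 0.0153 and 0.00916), as did the hypoxia-responsive miR-210, at -4.61 and -4.54 untreated and at the floor after treatment (limma, adjusted p = 0.0018). miR-155, of activated immune cells, went from -3.69 and -3.51 to -3.85 and -4.24 and did not pass (limma, adjusted p = 0.0892). For these the data show only that the signal was lost from view: the fitted sizes are set by the floor and have no order. Identical values at the floor also shrink the estimated spread, and with it the adjusted p.

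In all, 34 miRNAs were well above background on both untreated and neither treated array, and 1 did the opposite. The 34 were not all lower after treatment, as the limit of detection was higher on the treated arrays. Among them miR-1904 (0.57), miR-376b (0.55) and miR-181b (0.31) had a higher mean level. miR-1904 lay at -5.02 on both untreated arrays and at -4.76 and -4.13 on the treated ones. Since the lowest signal well above background was as high as -2.94 on treated replicate 2, a lower bound for the decrease could be given for 1 of the 34 only. This was miR-218, at -3.81 and -3.85 untreated and -4.83 and -5.02 treated, whose decrease was at least 1.01-fold (adjusted p = 0.000209 by limma). That bound is not strict, because the limit on treated replicate 2 lay above the untreated level, and with the summed signal miR-218 turned to 0.16. Among the others, miR-434-5p at -4.12 and -3.95 untreated, miR-495 at -4.33 and -4.12 and miR-154 at -4.64 on both did not pass the test, while miR-361 at -4.47 and -4.31 and miR-196a at -4.21 and -4.00 did. With the summed signal miR-361 turned to 0.30. miR-466a-3p was the miRNA that appeared only after treatment, at the floor on both untreated arrays and at -4.72 and -1.73 on the treated ones.

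The markers of the cell type were present. Of 21 fibroblast and mesenchymal miRNAs on the array, 20 were well above background on both untreated arrays, and 18 and 13 on the treated ones; the one missing on all of them was miR-145, of the smooth muscle and fibroblast cluster with miR-143. Of these 20, 7 fell and 0 rose, with a median of -0.63, against 14.3% that fell and a median of -0.09 over all tested. The 7 were the 4 of the miR-199 and miR-214 list, miR-100, miR-10b and miR-222. Those 4 are not independent readings. This list, like the others, was chosen with earlier results of these data known, so its share and median are a description only. The abundant fibroblast miRNA miR-21 had levels of 4.17 and 4.33 untreated and 3.998 and 3.43 treated, lower on both treated arrays, but did not pass (-0.54 ± 0.18; limma, adjusted p = 0.0917). miR-125b-5p (-0.61), miR-143 (-0.67), miR-140 (-0.71), miR-22 (-0.28), miR-31 (-0.27) and miR-29a (-0.12) did not pass either. Of epithelial, haematopoietic, endothelial and hepatocyte miRNAs, 0 of 8, 0 of 7, 0 of 2 and 0 of 1 were well above background on any of the 4 arrays. Of 16 pluripotent and 7 muscle miRNAs, 2 and 1 were so on treated replicate 2 alone, and of 8 neural ones 1, miR-7a, on the 3 other arrays. Among the 10 brightest signals of the untreated cells, miR-199a-3p and let-7i passed, and miR-21, miR-125b-5p, miR-720, miR-22, miR-29a, miR-24, miR-27a and miR-23a did not.

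The largest rise among measured miRNAs that passed was that of miR-1224. It is made by splicing of a short intron, without the Drosha step of other miRNAs. Its levels were -3.41 and -3.08 untreated and -0.59 and -1.38 after 12 h, a change of 2.26 ± 0.26 (limma, adjusted p = 0.00178), 4.80-fold higher. Both of its probes rose, by 2.18 and 2.35, and at 24 h its levels were 0.92 and 0.74. miR-1895, a GC-rich sequence of unclear function, went from -4.22 and -4.37 to -2.47 and -3.07, a change of 1.52 ± 0.29 (limma, adjusted p = 0.0108), and stood at -3.54 and -3.86 at 24 h. Its call was lost without untreated replicate 1 or 2 (limma, adjusted p = 0.0516 and 0.0874). They were on a list of miRNAs often bright on arrays, of which the other tested one, miR-1187, was not GC-rich, did not pass and was high on treated replicate 2. miR-689 was at the floor or next to it untreated (-5.02 and -4.99), and at -3.17 and -3.70 treated, the last not well above background; it passed with 1 used probe (limma, adjusted p = 0.000766) and turned to -1.22 with the summed signal. It belongs to a list of array entries thought to be pieces of abundant RNAs, of which miR-720, a tRNA fragment (0.35), and miR-709 (0.24) did not pass, nor did miR-690, at -4.15 and -3.92 untreated and -3.46 and -2.41 treated. Levels of such pieces can follow RNA breakdown; the list's median change was 0.72, or -0.67 when scaled on all probes, and its part in the other rises was not tested.

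The miR-17-92 cluster and its paralogs, which Myc and E2F activate and which promote proliferation, had a median change of 0.67 on treated replicate 1 and 0.07 on treated replicate 2. Of 9 tested members, 2 rose and 0 fell, with a median over both arrays of 0.37 against -0.09 for all tested. miR-19b had levels of -1.34 on both untreated arrays and -0.46 and -0.85 on the treated ones, a change of 0.68 ± 0.18 (limma, adjusted p = 0.0425). miR-20b, of the X-linked miR-106a cluster, went from -3.51 and -3.52 to -2.76 and -3.02, a change of 0.63 ± 0.11 (limma, adjusted p = 0.00916). miR-92a (0.84 ± 0.25; limma, adjusted p = 0.0647), miR-19a (0.60) and miR-20a (0.37) were higher on both treated arrays without passing. miR-18a (0.26) and, of the miR-106b cluster, miR-106b (-0.06), miR-93 (-0.02) and miR-25 (0.02) did not pass and overlapped between groups. Both calls turn sign with other scalings: under quantile normalization miR-20b was at -0.27 and the median of all tested at -0.55, and under all-probe scaling miR-20b was at -0.55, miR-19b at -0.71 and the median at -0.77. miR-19b did not pass without untreated replicate 1, untreated replicate 2 or treated replicate 1 (limma, adjusted p = 0.137, 0.18 and 0.0807), nor miR-20b without untreated replicate 2 (limma, adjusted p = 0.0501).

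Set against each other within an array, these groups moved apart by nearly the same amount on both treated arrays. The mean level of the 4 miR-199 and miR-214 members, minus that of the 7 measured let-7 members other than let-7i, was lower than its untreated mean by -1.34 and -1.30, and the untreated arrays lay 0.10 from it. For the 7 measured members of the miR-17-92 list the same difference was higher by 0.43 and 0.44. The choice of let-7 as the reference was made after the values were seen, and no test is given.

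Of the Dlk1-Dio3 cluster, an imprinted locus on chromosome 12 whose many miRNAs are read from the maternal chromosome, 32 members were tested, 4 fell and 0 rose, with a median of -0.19, so that members fell no more often than the 14.3% of all tested. Only 2 of the 32 were measured on all 4 arrays. miR-127, antisense to Rtl1, had levels of -2.96 and -2.81 untreated and -3.62 and -3.99 treated, a change of -0.92 ± 0.19 (limma, adjusted p = 0.0148). miR-410 went from -3.31 and -3.21 to -3.99 and -4.66, a change of -1.07 ± 0.19 (limma, adjusted p = 0.00916). For both, treated replicate 2 was not well above background, and without untreated replicate 2 neither passed (limma, adjusted p = 0.111 and 0.0694). miR-127 did not pass without untreated replicate 1 or treated replicate 2 either (limma, adjusted p = 0.0557 and 0.0718). It had a used probe at the floor on 1 treated array. It turned to 1.52 with the summed signal and to 1.80 in the deposited table, which is the same signal unscaled. miR-136 and miR-154* also passed, with used probes at the floor on both treated arrays. On both treated arrays 18 of the 32 were lower than on both untreated ones, as were 38.9% of all tested. miR-494 was the member with the highest change, 1.89 ± 0.83, from -4.91 and -4.59 to -1.76 and -3.97, and did not pass (limma, adjusted p = 0.18).

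Other families had few calls. Of 5 tested miRNAs of the miR-23/27/24 clusters 0 passed, with changes between -0.57 (miR-23b) and -0.10 (miR-27a). Of the miR-29 family, which targets collagen genes, and of the miR-30 family, 0 of 3 and 0 of 5 passed, with medians of -0.16 and -0.39. In the miR-99/100 and miR-125 list 1 of 5 fell, miR-100, from -3.92 and -3.88 to -4.38 and -4.79. It was not well above background on treated replicate 2 and had used probes at the floor on both treated arrays. With the summed signal miR-100 turned to 0.39. Of the Hox cluster miRNAs 2 of 4 fell, miR-10b and miR-196a. miR-10b went from -3.01 and -2.93 to -3.38 and -3.86, the last not well above background. miR-196a lay at the floor after treatment. Leaving out each array in turn, the call of miR-196a was kept in 0 of 4 cases and that of miR-10b in 1. miR-10a and miR-196b were at the floor on all 4 arrays. Of miR-103 and miR-107, of miR-148a and miR-152, and of miR-183, miR-96 and miR-182, 0 of 2, 0 of 2 and 0 of 3 passed. Of the miRNAs outside the lists, 2 more fell: miR-342-3p, from -3.48 and -3.26 to -3.91 and -4.29 (limma, adjusted p = 0.0138), and miR-193b, at -4.21 and -4.17 untreated and -4.50 and -4.56 treated (limma, adjusted p = 0.043). Both were not well above background on treated replicate 2. miR-193b had used probes at the floor on both treated arrays, and its call was kept in 1 of 4 cases with an array left out.

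The treated arrays disagreed most for a set of 19 miRNAs. The sequences of 5 are printed: miR-574-5p, miR-1187, miR-467f and miR-574-3p hold a UG or CA repeat, and miR-877* does not.
miR-574-5p: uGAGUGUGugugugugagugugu
miR-1187: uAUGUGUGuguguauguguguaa
miR-467f: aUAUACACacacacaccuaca
miR-574-3p: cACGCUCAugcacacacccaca
miR-877*: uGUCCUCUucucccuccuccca
On treated replicate 2, 19 tested miRNAs were over 1 log2 unit higher than on replicate 1, by 1.04 to 4.82, and 0 of them passed the test. For 16 of the 19 the wild type 12 h array of the same scanning run was also over 1 log2 unit higher than the other wild type 12 h array. miR-467f had levels of -2.97 and -3.61 untreated and -2.61 and 0.28 treated, so that only replicate 2 left the untreated range by much. miR-877*, processed like miR-1224 from a short intron, went from -4.84 and -5.02 to -5.02 and -0.20. miR-467f belongs to the large group of miR-297, miR-466, miR-467 and miR-669 genes in an intron of Sfmbt2, of which 11 members were tested, 10 were in the set of 19 and 0 passed (limma, lowest adjusted p = 0.238). Their changes were between 0.20 and 1.17 on replicate 1 and between 0.00 and 4.83 on replicate 2, with a median of both arrays' mean change of 2.35. The viral mghv-miR-M1-2, which uninfected mouse cells do not encode, was in the set as well, 3.10 higher on replicate 2. Of the 8 members of the set with a sequence at hand, 4 held UGUGUG or its reverse complement CACACA, against 3 of the other 125 tested miRNAs with one and 2.38% of the 1679 mature mouse miRNAs in the reference table. Outside the tested set the same held: 37 array miRNAs were well above background on treated replicate 2 and on none of the other 3 arrays, and 36 of these were so on the wild type 12 h array of that run. The run also held the 24 h arrays of replicate 2. There 85 (wild type) and 91 (knockout) array miRNAs were well above background, with 81 and 82 tested miRNAs so. On its 12 h arrays these numbers were 144 and 112, with 101 and 73 tested. The cause was not tested.

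**Figure D3:**
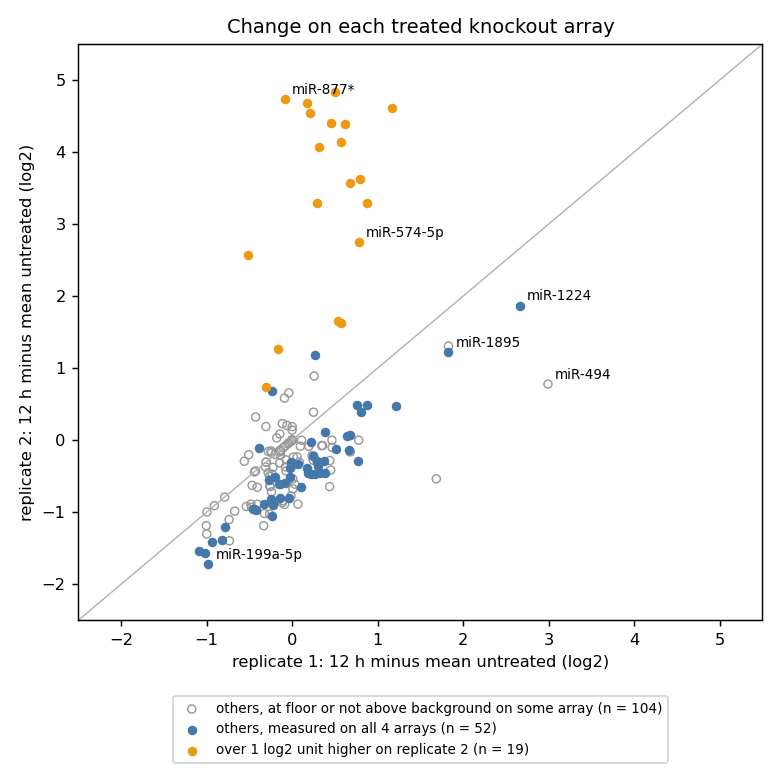
Change of each of the 175 tested miRNAs on treated replicate 1 (horizontal) and on treated replicate 2 (vertical), each minus the mean of the untreated arrays (log2), with the line of equality. The 19 miRNAs over 1 log2 unit higher on replicate 2 (orange) stand above the line, and most of the other 52 measured ones (blue) lie below it.

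Leaving these 19 out, the changes on the 2 treated arrays over the other 52 measured miRNAs had a Pearson's r of 0.87, and 0.60 with all 60 measured, as a description across miRNAs that share both untreated arrays. Without treated replicate 2, 28 miRNAs passed, 23 of them among the 30, and without treated replicate 1, 72 passed, 28 among the 30. Without untreated replicate 1 or 2, 19 and 13 of the 30 passed, so a single untreated array decided up to 17 calls. Passing without any 1 of the 4 arrays were 13: miR-199a-3p, miR-199b*, miR-214, let-7i, miR-322, miR-1224, miR-689, miR-218, miR-222, miR-210, miR-146a, miR-146b and miR-154*. Of these the last 6 lay at or next to the floor after treatment.

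The design asks whether the response to tunicamycin depends on ATF6a, for which the wild type fibroblasts at 12 h are the comparison. Of the 30 changed miRNAs, 29 moved in the same direction in the wild type, and 27 of these passed there too; the exception, miR-146b, lay at the floor on all 4 wild type arrays. The genotypes share slides and scanning runs but no arrays, so these responses are not free of a common slide effect. For let-7i the wild type change was -1.34, and the difference of responses, knockout minus wild type, was 0.35 with a 95% interval of -0.11 to 0.81 (limma, adjusted p = 0.357). For miR-199a-3p it was -0.29 (-0.77 to 0.19; limma, adjusted p = 0.49), for miR-214 -0.64 (-1.26 to -0.02; limma, adjusted p = 0.21) and for miR-1224 0.37 (-0.48 to 1.22; limma, adjusted p = 0.611). The 12 measured changes had adjusted p of 0.109 to 0.922 for this difference, which does not show that the genotypes respond alike.

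The difference of responses passed for 17 of 175 miRNAs (9.71%), 15 with a smaller decrease or none in the knockout and 2, miR-222 and miR-146b, with a larger one. None of the 17 was measured on all 8 arrays, so the fitted sizes depend on the floor and have no order. For 8 of them all 4 treated arrays of both genotypes lay at the floor, and there the difference of responses restates the gap between the untreated genotypes. For 15 of them both untreated knockout arrays lay below both untreated wild type arrays. As the untreated levels enter the difference itself, and no share over all tested is given, this count is a description only. Of the 17, 9 were of the Dlk1-Dio3 cluster, which had 32 of the 175 tested. miR-99a, a relative of miR-100, had knockout levels of -4.42 and -4.36 untreated and -4.46 and -4.81 treated, and wild type levels of -3.39 and -3.28 untreated and at the floor treated. The difference passed (limma, adjusted p = 0.00168), but the wild type decrease ends at the floor and its size was not measured. miR-148a, which targets DNA methyltransferases, had knockout levels of -4.45 and -4.25 untreated and -4.61 and -4.85 treated, the treated ones with used probes at the floor. Its wild type levels were -3.24 and -3.08 untreated and -4.81 and -4.74 treated, and the difference passed (limma, adjusted p = 0.00304). miR-222 was the reverse, with untreated levels of -3.92 and -4.12 in the knockout and -4.65 and -4.63 in the wild type, and all 4 treated arrays at the floor. miR-23b, measured on all 4 knockout arrays, changed by -0.57 and by -1.55 in the wild type, and the difference of 0.99 did not pass (limma, adjusted p = 0.0976). With the scanning run as a block 12 passed: 6 of the 17 no longer did, and miR-127 did in addition (limma, adjusted p = 0.264 without and 0.0229 with the block). Within runs, knockout minus wild type for miR-127 was -0.92 and -0.91 untreated and -0.37 and -0.33 at 12 h. Knockout arrays lay at row 2 and wild type arrays at row 1 of their slides throughout, and this position cannot be told apart from genotype.

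**Figure D4:**
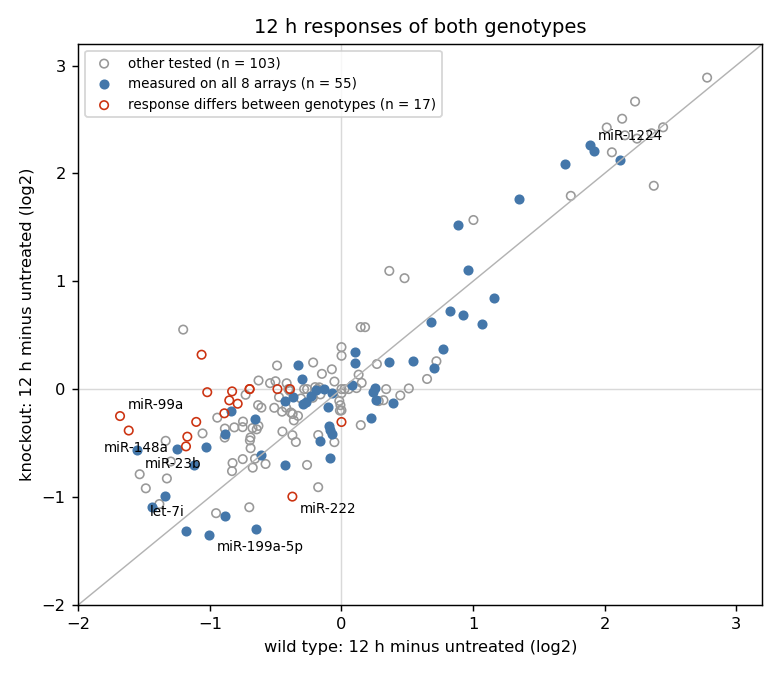
Change after 12 h in wild type (horizontal) and knockout cells (vertical), log2, for the 175 tested miRNAs, with the line of equality; filled points are measured on all 8 arrays. The 17 miRNAs whose response differed between genotypes (red) are open points, 15 above the line and 2 below it.

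The number of calls depended on the scaling, and so did some directions. Scaling on the 75th percentile of all probes moved the median change of all tested miRNAs from -0.09 to -0.77, quantile normalization to -0.55 and the scanner software's summed signal to -0.46, and normexp background correction moved it to 0.05. The calls were then 0 (limma, with 10 at an unadjusted p under 0.05), 11, 5 and 5, against 30. They split into 0 higher and 11 lower with quantile normalization and 0 higher and 5 lower with the summed signal, against 5 and 25. Relative to the median of all tested miRNAs, the 12 measured calls kept their direction with all-probe scaling, quantile normalization and normexp, and 11 of the 12 did with the summed signal, where miR-26a changed by 0.12, which is 0.58 above that median. Of all 30 calls, 24 had the same sign with the summed signal, 23 relative to its median. miR-199a-3p lay between -1.08 and -2.57 under the 6 settings plotted, let-7i between -0.83 and -2.39, and miR-1224 between 0.87 and 2.33.

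**Figure D5:**
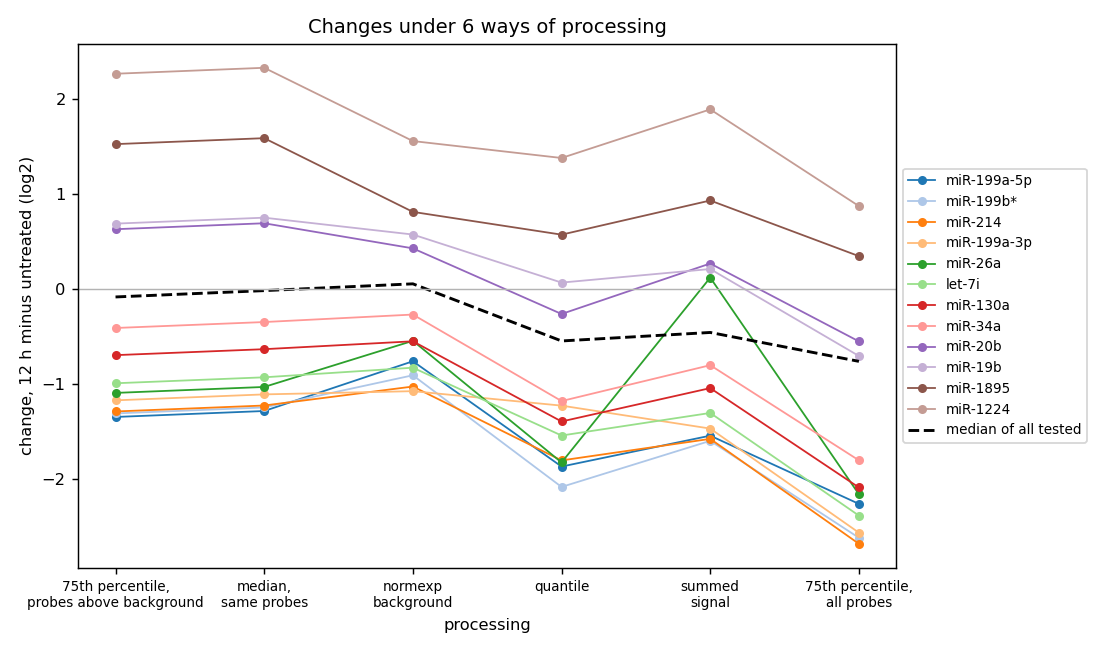
Change after 12 h in the knockout (log2, vertical) of the 12 measured miRNAs that passed, under 6 ways of processing (horizontal), with the median of all 175 tested miRNAs as a dashed line. Most lines are lowest with the 75th percentile of all probes, as is the median, miR-1224 and miR-1895 stay above 0 throughout, and miR-26a leaves the falling group with the summed signal only.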

How the data were processed

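Spot intensity values were deposited by the authors as output of the scanner software (Agilent Feature Extraction, version 10.7.1.1 in the submitters' processing notes), background-subtracted and unscaled per the file headers; 100 ng of total RNA was Cy3-labelled per array, per the labels' protocols. The deposited log2 table equals the summed signal of detected miRNAs. Controls (715 of 13715 spots) and outlier spots were left out, and no spot was saturated. Spots were averaged per probe, arrays were scaled on the 75th percentile of 87 probes, a floor of 0.0309 was set, and log2 was taken and averaged over 306 probes of 175 miRNAs. Probes were used that both arrays of 1 or more groups showed well above background. limma 3.58.1 (R 4.3.3) was fitted to 6 group means with 6 residual and 1.16 prior degrees of freedom, tested on simulated data, with Benjamini-Hochberg adjustment per comparison. Named miRNAs are those passing without overlap, all tested list members, the 10 brightest, those whose responses differ (up to 15) and those lost or gained (up to 15). The members and lists were chosen with earlier results of these data known. Alternatives covered scaling, background, filters, floor, blocks and arrays left out; normexp used the median spot signal. Mature arms were matched to array names by hand.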

Additional observations from a re-analysis of the deposited data

Results flagged for a closer look

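For 17 miRNAs the response to 12 h of tunicamycin differed between knockout and wild type cells by a test of the difference itself (limma, adjusted p under 0.05, 2 arrays per group). The differences below are knockout minus wild type, in log2 units. None of the 17 was measured on all 8 arrays, so these fitted values depend on the floor and have no order. They were 0.80 for miR-154*, 0.75 for miR-409-3p, 0.73 for miR-210, 1.43 for miR-99a, 0.70 for miR-376a*, 0.65 for miR-152, 1.23 for miR-148a and 0.99 for miR-434-3p. They were 0.70 for miR-543, -0.62 for miR-222, 0.49 for miR-132, 0.81 for miR-369-5p, 0.39 for miR-409-5p, 0.65 for miR-136, 0.67 for miR-411, 1.38 for miR-129-3p and -0.31 for miR-146b. miR-129-3p lay outside the naming rule and was added after its values were seen. miR-376a*, miR-543, miR-132 and miR-409-5p lay at the floor on all 4 knockout arrays, so their difference is the wild type decrease alone. For 8 of the 17, among them miR-154* and miR-210, all 4 treated arrays of both genotypes lay at the floor, so the difference restates the untreated gap: for miR-210, knockout minus wild type was -0.75 and -0.71 untreated. miR-434-3p, from the Dlk1-Dio3 cluster, had levels above the floor, but here too the genotypes differed untreated and lay close together after treatment. Its knockout levels were -3.96 and -3.84 untreated and -4.05 and -3.81 treated. In the wild type they were -2.85 and -2.95 untreated and -3.84 and -3.99 treated.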

How the results depend on the processing

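The number tested was 175, but 650 with no filter and 81 in the deposited table, where 15 of the 30 calls had a value. It was 68 with only probes well above background on the 4 arrays, and 162 with those so in 1 of the 2 groups. Counts from these settings are not like for like with the rest. For the knockout at 12 h, 30 miRNAs passed. The count was 19 when scaled on the median, 14 with no filter, 11 with quantile normalization, 8 with only probes well above background on the 4 arrays, 8 with the floor of the noisiest array, 5 with normexp and 5 with the summed signal. In limma it was 0 when scaled on all probes, in the deposited table and when only the groups compared were fitted, with 10, 10 and 34 at an unadjusted p under 0.05. Leaving out 1 array in turn gave 13 to 72. For the difference of the responses, 17 passed, 6 with the floor halved, 9 with the floor of the noisiest array, 9 with probes well above background in 1 of the 2 groups and 10 with only the groups compared. In limma 0 passed when scaled on all probes, with quantile normalization, normexp, the summed signal, the deposited table and probes well above background on the 4 arrays; there 1, 14, 1, 8, 0 and 3 had an unadjusted p under 0.05; arrays left out gave 10 to 34. Scaling on the median, the noisiest floor, the crossed pairing and run as a fixed block were chosen after seeing the data.

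With the summed signal miR-100 turned to 0.39, miR-127 to 1.52, miR-218 to 0.16, miR-26a to 0.12, miR-361 to 0.30 and miR-689 to -1.22, and in the deposited table miR-127 to 1.80, miR-26a to 0.40 and miR-34b-5p to 0.11. The deposited table is the summed signal without scaling, and its median change was 0.15. miR-19b turned to -0.71 and miR-20b to -0.55 when scaled on all probes, and miR-20b to -0.27 with quantile normalization. The differences of miR-136 and miR-409-3p turned to -2.87 and -0.10 with the summed signal. The cause was not tested. With the replicate block, 34 and 13 passed. Deviations of same-numbered untreated and treated arrays correlated at -0.62. In each group the replicate number goes with the scanning run, so this cannot tell whether the numbers pair the arrays. With the numbers crossed, 42 passed. Same-numbered knockout and wild type arrays, scanned in one run, correlated at 0.74 untreated and 0.93 at 12 h; with the run as a fixed block 12 differences passed. Dim miRNAs were limited by treated replicate 2, where 73 of 175 were well above background.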
